A study of Homo sapiens with 38 samples.

Results

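The 7 genes described here encode the U4 and U5 small nuclear RNAs (snRNAs) of the tri-snRNP, a building block of the spliceosome. They are the snRNA entries RNU4-1, RNU4-2, RNU5A-1, RNU5B-1, RNU5D-1, RNU5E-1 and RNU5F-1, chosen by name, among 1312 snRNA entries and 22549 features in all. Small RNA was sequenced from particles that DiFi cells, an established human colorectal cancer line, shed into the medium, after treatment with AlkB enzymes, which remove base methylations that can halt reverse transcription. The design sets culture and isolation method side by side. A density gradient of medium from a hollow-fibre bioreactor (3D culture) gave the pools gradient 12, gradient 9_10 and gradient 6_7, with 4 libraries each. Size-exclusion chromatography on an FPLC system of 3D medium gave FPLC supermere and FPLC exomere, with 4 libraries each. Ultracentrifugation (UC) of 3D medium gave 3D UC supermere, exomere and small extracellular vesicles (sEV), and of flat culture (2D) gave 2D UC supermere, exomere and sEV, with 3 libraries each. Exomeres and supermeres are small particles without a membrane: in UC the sEV pelleted at 167000 g in 4 h, the exomeres at 167000 g in 16 h and the supermeres at 367000 g in 16 h. All libraries come from this single line, and no group of treated or mutant cells is among them. The 2D medium came from 3 pools of 1360 mL, serum-free for 48 h, and the 3D medium from 4 pools of about 400 mL, divided into aliquots of 60 mL for the isolation methods. Culture therefore cannot be told apart from medium, volume and pool. The gradient is said to hold lighter and heavier vesicles and material without vesicles, but which pool holds which is not given.

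The table holds estimated counts per feature. Totals ran from 81079 counts in gradient 9_10 C to 16991360.5 in 2D UC sEV B. The gradient 9_10 libraries, at 81079 to 490374, were the shallowest group. 3D UC supermere A, with 46 counts in all and 0 for U4 and U5, was left out, which leaves 2 libraries in that group and 37 in all. FPLC supermere stood apart within itself: snRNA made up 0.162% of the counts in A, 2.03% in B, 4.01% in C and 39.3% in D. Of the intestinal epithelial miRNAs miR-192, miR-194, miR-200c and miR-141, 4 of 4 were above 0 in 37 of 37 libraries. Their summed level ran from 33.6 CPM (counts scaled to a total of 1000000 per library) in an FPLC supermere library to 99476 CPM in a gradient 9_10 library. Summed miRNAs of blood cells (2 of 2 found), liver (1 of 1), endothelium (1 of 1) and mesenchyme with muscle (3 of 3) reached at most 8.25, 56.0, 61.7 and 95.9 CPM in a library. Of the blood cell miRNAs, miR-451a was above 0 in 19 and miR-223 in 10 of the 37 libraries. The liver miR-122 was above 0 in 26 and the endothelial miR-126 in 24. Of the list for mesenchyme and muscle, the muscle miR-1 was above 0 in 37, miR-143 in 14 and miR-145 in 1. The maximum of this list came from miR-1, at 95.9 CPM, while miR-143 reached 3.54 and miR-145 0.177 CPM.

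U4 snRNA pairs with U6 snRNA and keeps it inactive until the spliceosome is activated, when U4 is released. U5 snRNA joins this pair to form the tri-snRNP, stays in the active spliceosome, and holds the exon ends with a conserved loop. Both are nuclear RNAs that carry a ring of Sm proteins. The human genome keeps several expressed U5 genes. RNU5A-1 and RNU5B-1 encode forms described as abundant in cell lines, and RNU5D-1, RNU5E-1 and RNU5F-1 encode minor forms. Many further copies are thought not to be expressed.

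The U4 sequences are shown because so few bases separate them, which limits how far short reads can be assigned to either gene. RNU4-1 (ENSG00000200795.1) lies at chr12:120293097-120293237 and RNU4-2 (ENSG00000202538.1) at chr12:120291763-120291903, both on the minus strand of GRCh38, and each entry spans the whole single-exon non-coding gene of 141 bases. The sequences are those of GENCODE release 29. Capitals mark the bases of RNU4-2 that differ from RNU4-1, which are C37T, G88A, C99A and C113T counted from the 5′ end, written with the RNU4-1 base first.
RNU4-1: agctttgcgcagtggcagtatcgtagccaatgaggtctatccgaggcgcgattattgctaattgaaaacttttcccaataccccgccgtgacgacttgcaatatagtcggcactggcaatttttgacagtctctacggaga
RNU4-2: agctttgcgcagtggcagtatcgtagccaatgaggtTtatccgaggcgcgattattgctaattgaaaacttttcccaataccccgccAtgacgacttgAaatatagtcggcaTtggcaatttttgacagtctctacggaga

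Over their length the U4 genes were 97.2% identical, with 50 bases in a row in common. Of all 20-base windows, 19.7% of those of RNU4-1 and 20.5% of those of RNU4-2 occur in no other annotated snRNA.

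The U5 entries are RNU5A-1 (ENSG00000199568.1), RNU5B-1 (ENSG00000200156.1), RNU5D-1 (ENSG00000200169.1), RNU5E-1 (ENSG00000199347.1) and RNU5F-1 (ENSG00000199377.1), each of 116 to 120 bases. The authors' counting divided reads that fit several entries: 88.0% of the values of these 7 genes are not whole (tolerance 1e-06), against 6.71% over the table. The share over the table includes values of 0, which are always whole, so the 2 shares are not of like entries. The split between RNU4-1 and RNU4-2, and that among the U5 genes and their copies, is therefore uncertain.

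Levels differed widely between groups and, in some groups, between libraries. RNU5E-1 had the most counts per base of the 5 U5 RNAs in 26 of 37 libraries, RNU5B-1 in 6 and RNU5A-1 in 5, while RNU5D-1 averaged at most 50.5 CPM in any group. By mean CPM, gradient 9_10 was highest for RNU4-1, RNU4-2, RNU5E-1 and RNU5F-1, and 3D UC sEV for RNU5A-1, RNU5B-1 and RNU5D-1. Along the order of the 11 group means most neighbours overlapped. The exceptions among 10 neighbouring pairs per gene were 1 for RNU4-2 (2D UC exomere above 2D UC supermere), 1 for RNU5B-1 (3D UC sEV above gradient 12), 2 for RNU5D-1 (3D UC sEV above FPLC exomere, 2D UC supermere above FPLC supermere) and 1 for RNU5F-1 (FPLC exomere above 2D UC exomere). For RNU4-1, RNU5A-1 and RNU5E-1 all 10 neighbouring pairs overlapped. The share of all features whose groups do not overlap was not counted, so a lack of overlap, here and below, is a description. RNU4-1 means ran from 433 ± 465 CPM (SD, n = 4) in gradient 9_10 through 80.5 ± 5.42 in 3D UC sEV (n = 3) to 4.45 ± 1.37 in gradient 12 (n = 4). In material of this kind, fewer particles with the RNA and less RNA per particle cannot be told apart.

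**Figure D1:**
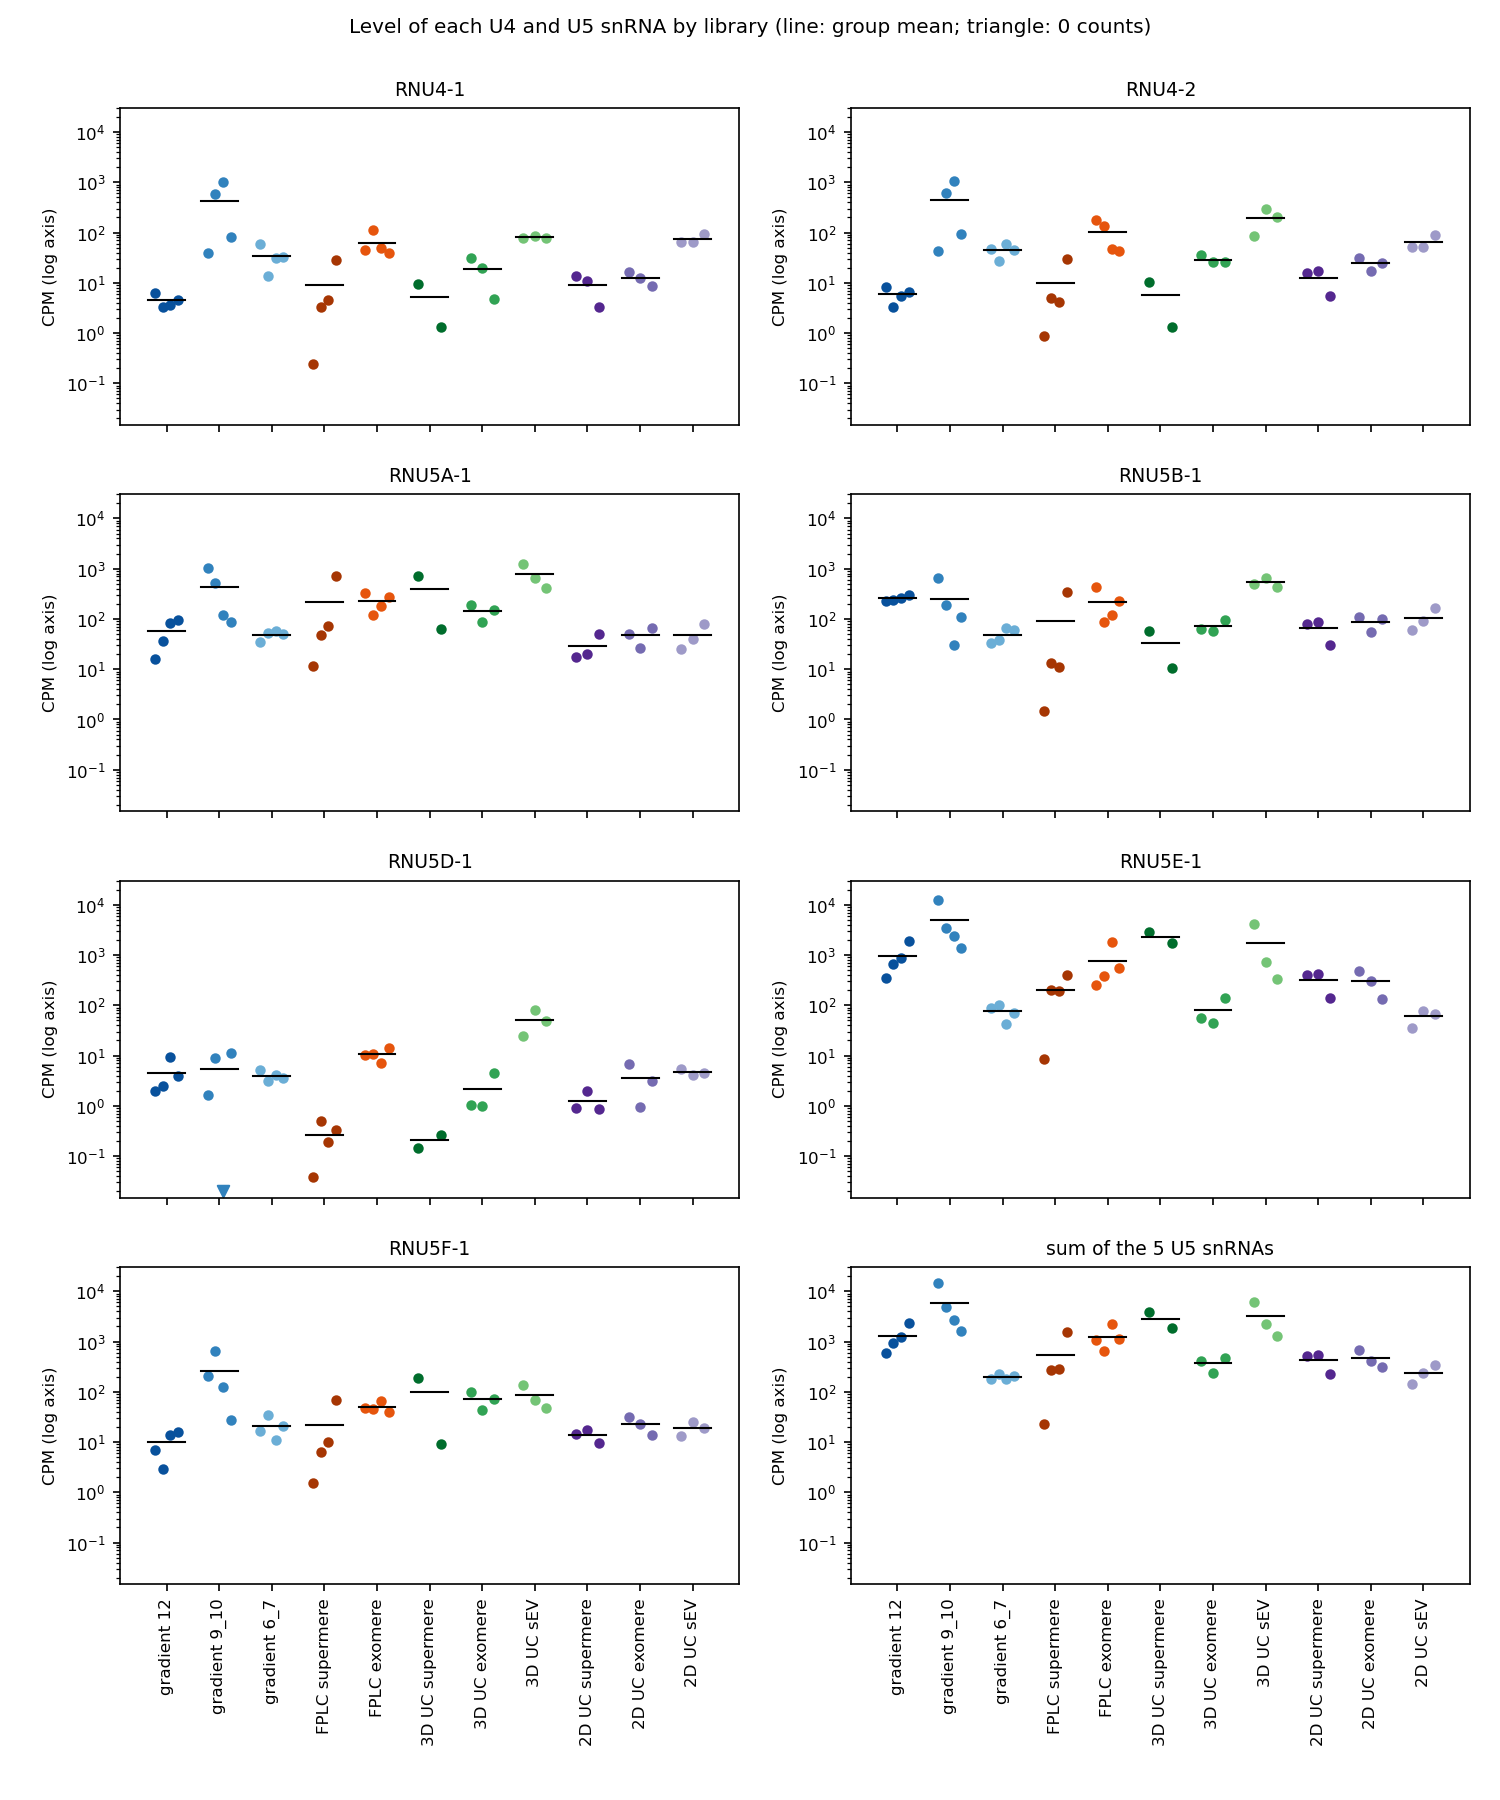
Level of each U4 and U5 snRNA, and of the sum of the 5 U5 RNAs, in CPM on a log axis, for each library (points) of the 11 groups; black lines are group means and the triangle at the bottom is a library with 0 counts. The U4 RNAs are low in gradient 12 (3.37 to 8.30 CPM), while RNU5E-1 there reaches 1909 CPM, and the FPLC supermere libraries are spread over 0.247 to 28.1 CPM for RNU4-1.

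CPM values rest on library totals. The log2 fold changes and adjusted p-values below come from 1 edgeR quasi-likelihood fit over all libraries, scaled by the trimmed mean of M-values (TMM), with Benjamini-Hochberg adjustment over the 8979 features kept; a gene is called at an adjusted p below 0.05. All 7 genes passed the filter on low counts. TMM factors ran from 0.0670 to 8.99, so scaling weighs on every fold change, and the median log2 fold change over all features lay between -4.39 and 2.71 by comparison with TMM and between -5.56 and 5.32 with library totals. Where scaling by library totals ends or adds a call of a U4 or U5 RNA, its value is given; values called under neither scaling are those of TMM unless stated. Over the 15 comparisons, 26 of 105 gene tests were called with TMM, beside 4.54% of all feature tests, and 30 with library totals, beside 15.4%, with 13 called under both.

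In 2D UC, both U4 RNAs were lower in supermeres and RNU4-1 was lower in exomeres than in sEV, by CPM and by the TMM fit. RNU4-1 stood at 13.4, 10.97 and 3.23 CPM in 2D UC supermere A, B and C and at 16.6, 12.6 and 8.76 CPM in exomere, against 64.6, 63.8 and 91.8 CPM in sEV. RNU4-2 stood at 15.6, 17.2 and 5.45 CPM in supermere and 30.5, 17.3 and 24.9 CPM in exomere, against 52.5, 51.0 and 88.9 CPM in sEV. For both RNAs every sEV library lay above every supermere and exomere library. In supermere against sEV the log2 fold change was -4.01 (SE 1.09, adjusted p = 0.00440) for RNU4-1 and -3.24 (SE 1.03, adjusted p = 0.0235) for RNU4-2. In exomere against sEV it was -4.12 (SE 1.09, adjusted p = 0.00392) for RNU4-1, while RNU4-2 had -2.83 (SE 1.01, adjusted p = 0.0724). As a share of all snRNA counts, U4 made up 0.0106% in supermere and 0.0248% in exomere, against 1.09% in sEV, where snRNA was 0.933 to 1.70% of counts against 18.6 to 52.0% in supermere.

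None of the U5 RNAs was called in 2D UC by the TMM fit, and other scalings gave RNU5E-1 values of either sign. RNU5E-1 had 399.7, 423 and 139 CPM in supermere and 473, 300.2 and 133 CPM in exomere, against 35.7, 79.0 and 68.2 CPM in sEV, so its sEV libraries were the lowest without overlap. Its log2 fold change was nevertheless 1.46 (SE 0.833, adjusted p = 0.439) in supermere and 0.54 (SE 0.819, adjusted p = 1) in exomere against sEV, and it was not called. DESeq2 called it in supermere (3.08, adjusted p = 0.00196), and edgeR with DESeq2's size factors called it in supermere (3.08, adjusted p = 0.000173) and exomere (2.25, adjusted p = 0.0147). Library totals gave 2.39 (adjusted p = 0.0557) and 2.31 (adjusted p = 0.0850), while snRNA totals gave -1.64 (adjusted p = 0.0902) and -1.11 (adjusted p = 0.308). RNU5B-1 had 80.4, 85.8 and 29.7 CPM in supermere and 111, 55.5 and 98.9 CPM in exomere, against 61.0, 91.7 and 166 CPM in sEV, and these ranges overlapped. RNU5A-1 (17.4 to 51.3 CPM in supermere against 25.5 to 79.7 CPM in sEV) and RNU5F-1 (9.40 to 17.7 against 13.4 to 25.6 CPM) overlapped as well. RNU5D-1 lay at 0.859 to 1.99 CPM in supermere against 4.07 to 5.42 CPM in sEV, without overlap, on 4.5 to 10.0 counts per supermere library, and was not called (log2 fold change -2.61, SE 1.19, adjusted p = 0.218).

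Of the 7 RNAs, 2 were thus called lower and 0 higher in 2D UC supermere against sEV (median log2 fold change -1.56), beside 7.82% of all features called and an overall median of 0. In exomere against sEV 1 was called lower (median -1.63), beside 6.45% of features (median 0.17). In supermere against exomere 0 of the 7 were called by edgeR or by DESeq2 (median 0.11), beside 0.0557% of features called by edgeR (median -0.14). An unadjusted edgeR p below 0.05 was reached by 0 of the 7, beside 469 of 8979 features. With library totals 5.92%, 4.24% and 0.123% of features were called in these 3 comparisons and none of the 3 calls remained: RNU4-1 had -3.00 (adjusted p = 0.0691) and RNU4-2 -2.34 (adjusted p = 0.185) in supermere against sEV, and RNU4-1 -2.53 (adjusted p = 0.164) in exomere against sEV. RNU4-1 lost its supermere call without supermere B (adjusted p = 0.0518) and its exomere call without exomere A (0.0626) or B (0.0665), and RNU4-2 lost its call without sEV C (0.0691), supermere A (0.119) or supermere B (0.146). The 3 calls were also lost with DESeq2's size factors in edgeR (adjusted p of 0.150 and 0.327 in supermere and 0.116 in exomere), RNU4-2 by DESeq2 (0.0754), and RNU4-2 (0.165) and RNU4-1 in exomere (0.0512) without the filter on low counts. With snRNA totals 6 of the 7, all but RNU5E-1, were called lower in supermere and in exomere, beside 50.8% and 40.7% of the snRNA features tested.

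In 3D UC, RNU4-2, RNU5B-1 and RNU5D-1 were lower in supermere than in sEV, and RNU5B-1, RNU5D-1 and RNU5E-1 were lower in exomere than in sEV. RNU4-1 stood at 9.27 and 1.33 CPM in 3D UC supermere B and C and at 30.8, 19.9 and 4.78 CPM in exomere, against 76.3, 86.6 and 78.5 CPM in sEV. RNU4-2 stood at 10.2 and 1.33 CPM in supermere and 35.4, 26.0 and 25.7 CPM in exomere, against 83.7, 288 and 202 CPM in sEV. As in 2D UC, every sEV library was above every other library of the method for both RNAs. In supermere against sEV, RNU4-2 was called (log2 fold change -4.98, SE 1.34, adjusted p = 0.00763), and RNU4-1 had -3.85 (SE 1.301, adjusted p = 0.0552). In exomere against sEV, RNU4-2 (-2.59, SE 0.997, adjusted p = 0.0967) and RNU4-1 (-1.93, SE 0.999, adjusted p = 0.238) were not called.

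RNU5E-1, the most counted U5 RNA, had 2843 and 1759 CPM in 3D UC supermere and 55.0, 45.4 and 141 CPM in exomere, against 4079, 719.7 and 331 CPM in sEV. The exomere libraries lay below all others; the supermere and sEV ranges overlapped and sEV A stood far above sEV B and C. RNU5E-1 was called higher in supermere than in exomere, by 5.25 on the log2 scale (SE 1.01, adjusted p = 0.000280). In exomere against sEV it was called lower (-4.48, SE 0.943, adjusted p = 0.000204). RNU5B-1 had 57.3 and 10.6 CPM in supermere and 62.9, 57.7 and 96.6 CPM in exomere, against 496, 664 and 439 CPM in sEV, with the sEV libraries highest without overlap. It was called lower against sEV in supermere (-3.88, SE 1.18, adjusted p = 0.0238) and in exomere (-2.82, SE 0.943, adjusted p = 0.0423). RNU5D-1 had 0.145 and 0.266 CPM in supermere and 1.04, 0.978 and 4.60 CPM in exomere, against 24.5, 79.1 and 48.0 CPM in sEV. It was called lower in both (-7.69, SE 1.95, adjusted p = 0.00354, and -4.52, SE 1.28, adjusted p = 0.00950). The supermere libraries held 1 rounded count against 557 in sEV, a ratio of rates of 0.00309 with a 95% counting interval of 7.82e-05 to 0.0173.

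RNU5A-1 and RNU5F-1 were not called between the 3D UC fractions. RNU5A-1 had 718 and 63.8 CPM in supermere and 189, 87.6 and 154 CPM in exomere, against 1264, 652 and 410.0 CPM in sEV. RNU5F-1 had 186 and 8.97 CPM in supermere and 101, 43.1 and 72.2 CPM in exomere, against 139, 69.5 and 47.1 CPM in sEV. The supermere libraries of both genes were more than 10 times apart, so the supermere range reached into the sEV range.

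In supermere against sEV 3 of the 7 were called lower (median log2 fold change -3.85), beside 5.17% of all features and an overall median of -3.22. In exomere against sEV 3 were called lower (median -2.59), beside 6.89% (median -0.16), and in supermere against exomere 1 was called higher (median -1.06), beside 0.245% (median 0). No supermere call against sEV remained without supermere B (RNU5B-1 -4.68, RNU4-2 -6.06, RNU5D-1 -6.70) or C (-3.36, -4.38 and -12.00), which leaves 1 library that is assumed to vary like the other groups. None remained with DESeq2's size factors in edgeR either, which gave RNU5B-1 -1.41, RNU4-2 -2.49 and RNU5D-1 -4.92 and called RNU5E-1 higher (3.37, adjusted p = 0.000219, against 0.77 by TMM). Without sEV A RNU5E-1 in exomere against sEV had -2.71 (adjusted p = 0.0610). RNU5B-1 lost its call in exomere in 6 of 6 omissions of 1 library (adjusted p up to 0.129) and in supermere without sEV B (0.0580). RNU5D-1 in exomere lost its call without exomere A, exomere B or sEV B (up to 0.0718) and stood at -5.25 without exomere C. Library totals kept the 3 supermere calls against sEV (beside 4.03% of features) and the call against exomere (0.290%), and ended the exomere calls of RNU5B-1 (-2.88, adjusted p = 0.0556) and RNU5D-1 (-4.46, adjusted p = 0.0726), beside 4.98%. DESeq2's size factors in edgeR ended these exomere calls too (-1.21 and -2.84), as did testing without the filter (adjusted p = 0.129 and 0.0505). DESeq2 itself did not call RNU5B-1 in supermere (adjusted p = 0.366) or exomere (0.395), nor did the fit without the filter in supermere (0.0968). Fitted from the 2 groups alone, RNU5E-1 was not called in supermere against exomere (6.01, adjusted p = 0.0908) or in exomere against sEV (-3.00, adjusted p = 0.0623).

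In the gradient, RNU5E-1 was higher in pools 12 and 9_10 than in 6_7, and the U4 RNAs were lowest in pool 12. RNU4-1 stood at 6.35, 3.37, 3.54 and 4.53 CPM in gradient 12 A to D and 39.6, 594, 1019 and 80.2 CPM in gradient 9_10, against 58.2, 13.6, 30.6 and 32.2 CPM in gradient 6_7. RNU4-2 stood at 8.30, 3.37, 5.50 and 6.65 CPM in gradient 12 and 43.6, 609.5, 1036 and 92.1 CPM in gradient 9_10, against 47.6, 27.6, 58.1 and 44.0 CPM in gradient 6_7. The gradient 12 libraries lay below all others, and gradient 9_10 B and C, which have 112383 and 81079 counts in all, were far above A and D. In gradient 12 against 9_10, RNU4-1 (log2 fold change -3.26, SE 0.948, adjusted p = 0.0180) and RNU4-2 (-2.82, SE 0.903, adjusted p = 0.0423) were called lower. Against 6_7 they were not called in gradient 12 (-2.33, SE 0.918, adjusted p = 0.121, and -2.35, SE 0.886, adjusted p = 0.0941) or in gradient 9_10 (0.93, SE 0.854, and 0.48, SE 0.827, adjusted p = 0.421 and 0.769).

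RNU5E-1 had 357, 669, 887 and 1909 CPM in gradient 12 and 12408, 3535, 2430 and 1373 CPM in gradient 9_10, against 89.0, 103, 41.7 and 71.2 CPM in gradient 6_7. All libraries of gradient 12 and 9_10 were above those of 6_7, and gradient 9_10 A was the highest of the series. It was called in gradient 12 (log2 fold change 4.11, SE 0.803, adjusted p = 1.23e-05) and in gradient 9_10 (2.88, SE 0.761, adjusted p = 0.00669) against 6_7, while gradient 12 against 9_10 gave 1.23 (SE 0.718, adjusted p = 0.393). RNU5B-1 had 223, 242, 258 and 297 CPM in gradient 12 and 654, 189.5, 30.8 and 111 CPM in gradient 9_10, against 33.3, 37.4, 64.8 and 59.9 CPM in gradient 6_7. Gradient 12 was above gradient 6_7 without overlap but lay inside the range of gradient 9_10. By TMM, RNU5B-1 was called higher in gradient 12 against 6_7 (2.87, SE 0.821, adjusted p = 0.00935) and against 9_10 (3.54, SE 0.847, adjusted p = 0.00141), though both values turned negative when libraries were scaled to their snRNA counts (-0.89 and -0.35). RNU5A-1 (15.8 to 94.5 CPM in gradient 12 and 86.7 to 1022 CPM in gradient 9_10 against 34.9 to 58.6 CPM in gradient 6_7), RNU5D-1 and RNU5F-1 (2.87 to 16.2 and 27.5 to 658 against 11.02 to 34.8 CPM) were not called in the gradient by TMM. RNU5D-1 had 0 counts in gradient 9_10 C, which allows up to 37.0 CPM (3 counts).

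In gradient 9_10 against 6_7, 1 of the 7 was called higher (median log2 fold change 0.08), beside 8.32% of all features and an overall median of 2.71. With library totals the overall median was 5.32, 42.4% of features were called, and 6 of the 7 were called higher: RNU5E-1 (6.02), RNU4-1 (3.68), RNU5F-1 (3.61), RNU4-2 (3.31), RNU5A-1 (3.17, against -0.04 by TMM) and RNU5B-1 (2.35, against -0.67 by TMM). In gradient 12 against 6_7, 2 were called higher (median 0.70), beside 7.35% (median 0). Library totals there called 6.50% of features, kept RNU5E-1, gave RNU5B-1 2.38 (adjusted p = 0.0573) and added the U4 RNAs as lower (-2.98, adjusted p = 0.0304, for RNU4-1 and -2.93, adjusted p = 0.0257, for RNU4-2). In gradient 12 against 9_10, 1 was called higher and 2 lower (median 0.74), beside 4.41% (median -1.75). Library totals called 44.1% of features there and gave RNU5B-1 a log2 fold change of 0.03 (adjusted p = 1), RNU4-1 -6.66, RNU4-2 -6.24, RNU5F-1 -4.64, and RNU5A-1 -2.95 and RNU5E-1 -2.37 where TMM gave 0.74 and 1.23, with adjusted p below 0.05 for all but RNU5B-1. Without gradient 9_10 C the U4 values by TMM were -1.93 (adjusted p = 0.328) and -1.53 (adjusted p = 0.415). The U4 calls were lost in 4 of 8 omissions of 1 library for RNU4-1 (gradient 12 B or C, gradient 9_10 B or C) and 6 of 8 for RNU4-2 (any gradient 12 library, gradient 9_10 B or C). Without the filter on low counts neither U4 RNA was called (adjusted p = 0.0584 and 0.113), and RNU4-2 was not called from the 2 groups alone (0.0558) or with library letters as a block (0.0901). The RNU5B-1 call against 6_7 was lost without gradient 6_7 A (adjusted p = 0.0593). With snRNA totals RNU5E-1 in gradient 12 against 6_7 had 0.59 (adjusted p = 0.541). Called values also moved without gradient 9_10 A (RNU5B-1 in gradient 12 against 9_10, 5.11), gradient 9_10 B (RNU5E-1 in 9_10 against 6_7, 4.14) and gradient 12 D (RNU5E-1 in 12 against 6_7, 3.32).

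In the FPLC preparations no U4 or U5 RNA was called between supermere and exomere by TMM, and 3 of them did not overlap in CPM. How many of all features did not overlap was not counted. With library totals, on which CPM rest, 4309 of 8979 features were called lower there. RNU4-1 stood at 0.247, 3.34, 4.51 and 28.1 CPM in FPLC supermere A to D, against 45.9, 114, 48.5 and 39.7 CPM in FPLC exomere. RNU4-2 stood at 0.864, 5.04, 4.12 and 29.5 CPM in supermere, against 179, 132, 46.5 and 43.1 CPM in exomere. RNU5D-1 had 0.0386, 0.49, 0.193 and 0.338 CPM in supermere, on 0.5 to 2.7 counts, against 10.2, 10.98, 7.26 and 14.4 CPM in exomere. These 3 RNAs were lower in every supermere library than in every exomere library, while FPLC supermere D, with its high snRNA share, was the highest supermere library of the U4 RNAs. RNU5E-1 had 8.64, 204, 190.4 and 407 CPM in supermere, against 249, 383, 1802 and 556 CPM in exomere, and RNU5A-1 had 11.5, 48.0, 70.9 and 722 CPM in supermere, against 331, 119.8, 185 and 269 CPM in exomere. The ranges of RNU5B-1 (1.505 to 337 against 85.4 to 428 CPM) and RNU5F-1 (1.57 to 69.9 against 39.6 to 65.4 CPM) overlapped too.

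By edgeR 0 of the 7 were called in FPLC supermere against exomere (median log2 fold change 0.02), beside 6.1% of all features and an overall median of -1.61. An unadjusted edgeR p below 0.05 was reached by 2 of the 7, beside 2029 of 8979 features. DESeq2 called 1 of the 7, and its share over all features is not given here. With library totals, where that median was -3.77 and 48.2% of features were called, 4 were called lower: RNU5D-1 (-5.63, adjusted p = 0.00218), RNU4-2 (-3.38, adjusted p = 0.00258), RNU4-1 (-2.83, adjusted p = 0.0106) and RNU5E-1 (-1.89, adjusted p = 0.0221, against 0.02 by TMM).

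FPLC and UC preparations of the same 3D medium were compared for each particle. RNU5E-1 was higher in FPLC exomere (249 to 1802 CPM) than in 3D UC exomere (45.4 to 141 CPM) and lower in FPLC supermere (8.64 to 407 CPM) than in 3D UC supermere (1759 and 2843 CPM), without overlap in both. The log2 fold changes were 2.47 (SE 0.834, adjusted p = 0.0527) for exomere and -2.77 (SE 0.837, adjusted p = 0.209) for supermere, neither called. For the exomeres 0 of the 7 were called by edgeR (median 0.45), beside 5.67% of all features (median 0.51). An unadjusted edgeR p below 0.05 was reached by 1 of the 7, beside 2585 of 8979 features, and DESeq2 called 1. For the supermeres the counts of the 7 were the same. They were 0 by edgeR (median 1.34), beside 0.212% of all features (median 0), 1 unadjusted, beside 737 of 8979 features, and 1 by DESeq2. The DESeq2 shares over all features are not given here. With library totals RNU5E-1 was called in both, at 3.21 (adjusted p = 0.00531) beside 11.3% of features in exomere and at -3.51 (adjusted p = 0.00763) beside 0.468% in supermere.

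**Figure D2:**
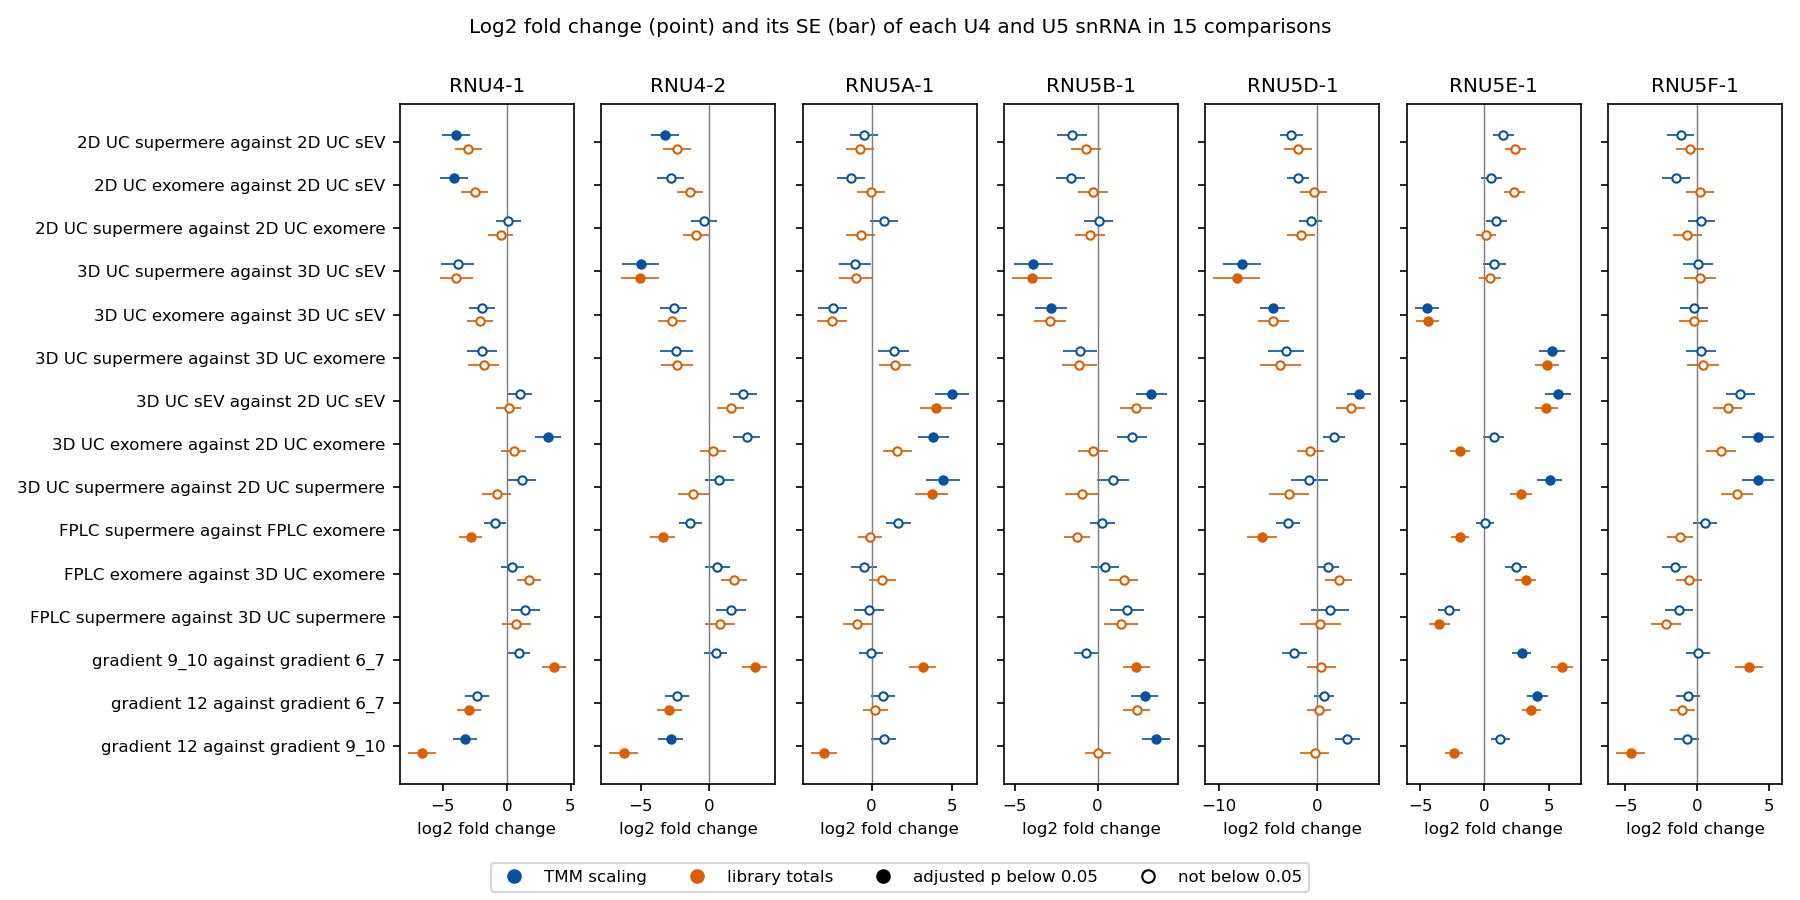
Log2 fold change of each U4 and U5 snRNA in the 15 comparisons, with its SE, by TMM scaling (blue) and by library totals (orange). Filled points passed an adjusted p below 0.05 under that scaling. By TMM, RNU5E-1 has the largest positive value that passed, 5.74 in 3D against 2D UC sEV. RNU5D-1 has the largest negative one by TMM, -7.69 in 3D UC supermere against sEV. Scaling to snRNA counts is not drawn. With it RNU5B-1 turns negative in 3D against 2D UC sEV (-0.29), gradient 12 against 6_7 (-0.89) and gradient 12 against 9_10 (-0.35).

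Between the cultures, every call by TMM was higher in 3D than in 2D, and all but that of RNU4-1 in exomere were of U5 RNAs. In sEV the CPM of 3D libraries, given above, exceeded that of every 2D library for all 5 U5 RNAs. Examples are 331 to 4079 against 35.7 to 79.0 CPM for RNU5E-1 and 410.0 to 1264 against 25.5 to 79.7 CPM for RNU5A-1. How many of all features separated in this way was not counted. The U4 RNAs overlapped (RNU4-1 at 76.3 to 86.6 CPM in 3D against 63.8 to 91.8 CPM in 2D, RNU4-2 at 83.7 to 288 against 51.0 to 88.9 CPM). In 3D against 2D UC sEV, RNU5E-1 (log2 fold change 5.74, SE 1.00, adjusted p = 1.11e-05), RNU5A-1 (4.97, SE 1.03, adjusted p = 0.000356), RNU5D-1 (4.29, SE 1.26, adjusted p = 0.0365) and RNU5B-1 (3.26, SE 0.961, adjusted p = 0.0380) were called. With snRNA totals 0 of the 4 were called, beside 7.03% of the snRNA features: RNU5E-1 had 1.64 (adjusted p = 0.210), RNU5A-1 1.19 (0.368), RNU5D-1 0.76 (0.610) and RNU5B-1 -0.29 (0.887). RNU4-1 had 1.03 (SE 0.973, adjusted p = 0.699) and RNU4-2 2.47 (SE 0.991, adjusted p = 0.271).

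In exomeres RNU5A-1 (87.6 to 189 CPM in 3D against 26.5 to 65.4 CPM in 2D) and RNU5F-1 (43.1 to 101 against 13.8 to 30.9 CPM) were higher without overlap. They were called at 3.82 (SE 0.973, adjusted p = 0.00697) and 4.26 (SE 1.09, adjusted p = 0.00705), as was RNU4-1 at 3.22 (SE 1.05, adjusted p = 0.0448), whose CPM overlapped (4.78 to 30.8 against 8.76 to 16.6 CPM). In supermeres RNU5E-1 (1759 and 2843 against 139 to 423 CPM) and RNU5A-1 (63.8 and 718 against 17.4 to 51.3 CPM) did not overlap, and RNU5F-1 did (8.97 and 186 against 9.40 to 17.7 CPM). They were called at 5.05 (SE 0.998, adjusted p = 7.87e-05), 4.41 (SE 1.04, adjusted p = 0.00211) and 4.25 (SE 1.13, adjusted p = 0.0114). Fitted from the 2 supermere groups alone, none of the 3 was called, at 4.98 (adjusted p = 0.0753), 4.36 (0.0921) and 4.20 (0.0759). With snRNA totals all 3 supermere calls remained, beside 10.1% of the snRNA features, and of the exomere calls RNU5A-1 did (2.56, adjusted p = 0.0252), beside 20.5%, while RNU5F-1 had 2.43 (0.0523) and RNU4-1 1.60 (0.228).

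In sEV 4 of the 7 were called higher (median log2 fold change 3.26), beside 1.96% of all features and an overall median of -0.85. In exomere 3 were called higher (median 2.71), beside 5.38% (median -1.77), and in supermere 3 were called higher (median 1.19), beside 2.03% (median -4.39). With library totals 0.813%, 49.5% and 8.32% of features were called in sEV, exomere and supermere. The sEV calls of RNU5E-1 (4.81) and RNU5A-1 (4.00) and the supermere calls of RNU5E-1 (2.84, adjusted p = 0.0298) and RNU5A-1 (3.72) remained, while RNU5B-1 (2.33, adjusted p = 0.360) and RNU5D-1 (3.43, adjusted p = 0.370) in sEV were lost. The exomere calls did not (RNU5A-1 1.59, RNU5F-1 1.68, RNU4-1 0.54), RNU5F-1 in supermere had 2.80 (adjusted p = 0.0758), and RNU5E-1 in exomere was called lower at -1.91 (adjusted p = 0.0414), against 0.72 by TMM. Without the filter RNU5B-1 (adjusted p = 0.390) and RNU5D-1 (0.431) in sEV, all 3 exomere calls (0.104 to 0.216) and RNU5F-1 in supermere (0.164) were lost. DESeq2's size factors in edgeR ended the calls of RNU5B-1 (1.83) and RNU5D-1 (2.79) in sEV and of RNU4-1 (1.80) in exomere. DESeq2 did not call RNU5B-1 (adjusted p = 0.106) or RNU4-1 (0.0754), and a block of library letters ended RNU5D-1 in sEV (0.0532). Single libraries also decided calls: RNU5B-1 and RNU5D-1 in sEV and RNU4-1 in exomere were lost in 6, 5 and 5 of 6 omissions, and RNU5A-1 in exomere without 2D UC exomere B (adjusted p = 0.0614). In supermere RNU5A-1 (2.76, adjusted p = 0.469) and RNU5F-1 (1.83, adjusted p = 0.787) were lost without 3D UC supermere B. They were also lost without 2D UC supermere A (0.0529 and 0.0959) and, for RNU5F-1, B (0.0521). Called values moved by over 1.5 times without 3D UC sEV A (RNU5E-1 3.96 and RNU5A-1 4.37 in sEV), 2D UC exomere C (RNU5A-1 4.90 in exomere), 2D UC supermere C (RNU5A-1 6.86 and RNU5F-1 5.02) and 3D UC supermere C (RNU5A-1 5.14 and RNU5F-1 5.08).

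Whether the fractions differed in another way in 3D than in 2D was tested as an interaction, a test added after the data had been seen. Of 21 tests, over the 7 RNAs and 3 pairs of fractions, 1 passed. The log2 fold change of RNU5E-1 in exomere against sEV was lower in 3D (-4.48) than in 2D (0.54) by a difference of -5.02 (SE 1.22, adjusted p = 0.0125). By CPM 3 of 3 exomere libraries were below the sEV libraries in 3D, and 3 of 3 were above them in 2D. It was -6.72 with library totals (adjusted p = 0.000113) and -3.01 with snRNA totals (adjusted p = 0.193). It was lost without 3D UC sEV A (-3.25, adjusted p = 0.246), 2D UC sEV A (0.0842), 2D UC sEV B (0.0508) or 3D UC exomere B (0.0619).

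The proportions among the U5 RNAs do not depend on the scaling between libraries. They are percentages of the summed counts of the 5 U5 genes, of which no library had under 100, and groups were compared with two-sided exact permutation tests adjusted over 25 tests. In the shallowest library, gradient 9_10 C with 219 U5 counts, the RNU5E-1 share of 90.0% had a 95% Wilson interval of 85.3 to 93.3%, and a count of 0 for RNU5D-1 allows up to 1.37%. In 2D UC RNU5E-1 made up 71.8% ± 9.93 of U5 in supermere and 62.2% ± 17.4 in exomere, against 26.1% ± 6.37 in sEV (SD, n = 3 each). RNU5B-1 made up 14.7% ± 1.59 in supermere and 20.5% ± 9.59 in exomere, against 43.5% ± 5.45 in sEV, where it was the most counted U5 RNA per base in 3 of 3 libraries. RNU5F-1 (3.38% ± 0.647 and 4.87% ± 0.652 against 8.62% ± 2.60) and RNU5D-1 (0.304% ± 0.110 and 0.750% ± 0.446 against 2.29% ± 1.35) had the same order. These 4 shares differed between the 3 fractions (exact permutation tests, adjusted p = 0.0406 for RNU5E-1, RNU5B-1 and RNU5D-1 and 0.0223 for RNU5F-1), and that of RNU5A-1, at 9.78% ± 10.8 and 11.6% ± 7.97 against 19.4% ± 3.72, was not called (adjusted p = 0.361). Equal letters deviated together in 2D UC supermere and exomere. With letters as a block none of the 5 shares was called (exact permutation tests, adjusted p = 0.0977 for RNU5E-1 and RNU5F-1, 0.122 for RNU5A-1 and RNU5D-1 and 0.149 for RNU5B-1). The smallest unadjusted p these blocked permutation tests allow is 0.0278, so adjustment over many tests left little room for a call. The blocked tests therefore cannot decide whether the shares differ between the fractions. Omitting 1 of the 9 libraries left 0 to 2 of the 4 calls, 0 without exomere C, supermere A or supermere B.

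In the gradient 4 shares differed as well. RNU5E-1 made up 70.6% ± 9.49 in gradient 12 and 83.5% ± 7.95 in gradient 9_10, against 38.1% ± 11.8 in gradient 6_7 (SD, n = 4 each). Its lowest shares in gradient 12 and 9_10, 59.0 and 71.9%, were above the highest in 6_7, 49.8%. RNU5A-1 made up 4.26% ± 1.67 and 6.88% ± 2.76, against 24.8% ± 5.59 in 6_7, and RNU5D-1 0.379% ± 0.264 and 0.224% ± 0.330, against 2.06% ± 0.676. RNU5B-1 was lowest in gradient 9_10, at 23.9% ± 10.1 in gradient 12 and 4.12% ± 2.37 in gradient 9_10, against 25.0% ± 9.19 in 6_7. These 4 shares differed between the pools (exact permutation tests, adjusted p = 0.00866 for RNU5E-1, 0.0108 for RNU5A-1, 0.0223 for RNU5D-1 and 0.0406 for RNU5B-1), and RNU5F-1 (0.817% ± 0.401 and 5.28% ± 5.59 against 10.1% ± 3.76) had an adjusted p of 0.0510. The calls of RNU5E-1, RNU5A-1 and RNU5D-1 held in 12 of 12 omissions of 1 library. That of RNU5B-1 was lost in 7 (gradient 12 B or C, gradient 6_7 D or any gradient 9_10 library, adjusted p up to 0.0714).

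**Figure D3:**
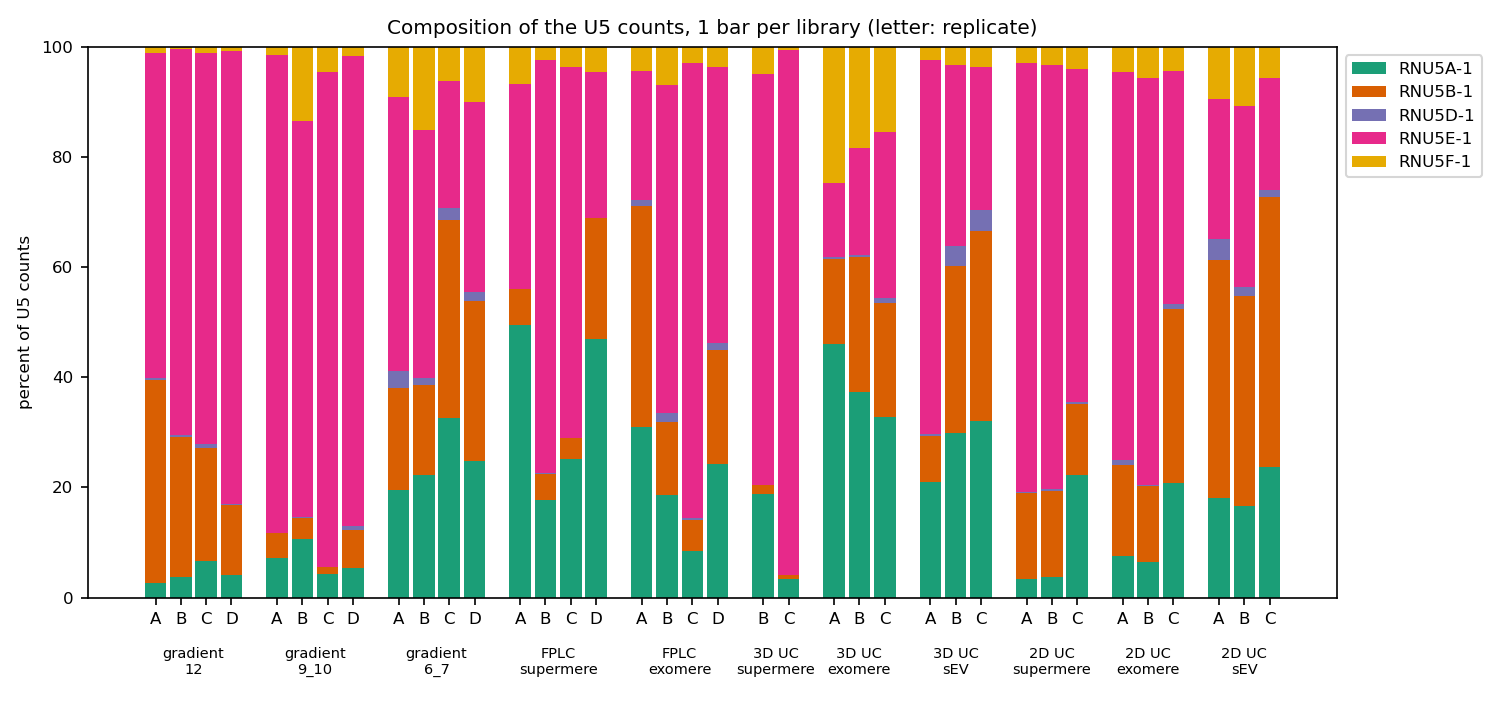
Percent of the summed U5 counts taken by each U5 RNA in each library (stacked bars), grouped by preparation. RNU5E-1 fills most of the bar in gradient 12 and 9_10 (59.0 to 90.0%), in 3D UC supermere (74.7 and 95.5%) and in 2D UC supermere (60.3 to 77.9%), and much less in 3D UC exomere (13.5 to 30.2%) and 2D UC sEV (20.2 to 32.9%).

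In 3D UC only the RNU5A-1 share was called, at 11.2% ± 10.9 in supermere (n = 2) and 38.7% ± 6.79 in exomere (n = 3), against 27.7% ± 5.85 in sEV (n = 3; exact permutation test, adjusted p = 0.0406). RNU5E-1 stood at 74.7 and 95.5% in supermere and 13.5, 19.3 and 30.2% in exomere, against 68.0, 33.0 and 26.0% in sEV (exact permutation test, adjusted p = 0.0714). sEV A, at 68.0%, lay in a different place from the other two sEV libraries: without it all 5 shares were called, and without exomere A, sEV B, sEV C or supermere C the RNU5A-1 call was lost. RNU5F-1 took 24.8, 18.4 and 15.4% in exomere, above the 4.88 and 0.487% in supermere and the 2.31 to 3.69% in sEV, with an adjusted p of 0.0510. In FPLC none of the 5 shares was called, with 1 (RNU5D-1, 0.109% ± 0.0767 in supermere against 1.07% ± 0.581 in exomere, n = 4 each) at an unadjusted p below 0.05 by the exact permutation test, 0.0286, the smallest this design allows. RNU5E-1 ran from 26.5 to 75.1% in FPLC supermere against 23.4 to 82.6% in FPLC exomere. Between cultures, with fractions as strata, RNU5A-1 and RNU5B-1 differed (exact permutation test, adjusted p = 0.0406 each). RNU5A-1 was higher in 3D exomere (38.7% against 11.6% in 2D). In sEV it was higher on average (27.7% against 19.4%), with overlapping libraries (21.1 to 32.1% against 16.6 to 23.6%). Its supermere shares overlapped (18.9 and 3.46% against 3.40 to 22.3%). RNU5B-1 was lower in 3D supermere (1.04% ± 0.658 against 14.7% ± 1.59) and sEV (24.4% ± 14.1 against 43.5% ± 5.45). In exomere its shares overlapped (15.4 to 24.6% against 13.7 to 31.5%). RNU5A-1 was lost in 14 of 17 omissions of 1 library (all but 2D UC supermere C, 3D UC supermere C and 3D UC sEV A). RNU5B-1 was lost in 11 of 17 (all but 2D UC exomere A and B, 3D UC exomere B and C, and 3D UC sEV A and C).

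The balance of U5 over U4 was given per base, since the RNAs differ in length; it was not tested. The ratio of summed U5 to summed U4 counts per base was 49.2, 168, 164 and 245 in gradient 12 and 203, 4.84, 1.55 and 11.03 in gradient 9_10, against 2.01, 6.66, 2.45 and 3.25 in gradient 6_7. In 3D UC it was 231 and 816 in supermere, on 40.4 and 11 U4 counts, and 7.46, 6.16 and 18.4 in exomere, against 44.6, 7.01 and 5.48 in sEV. In 2D UC it was 21.0, 23.1 and 31.6 in supermere and 17.0, 16.1 and 11.2 in exomere, against 1.45, 2.51 and 2.25 in sEV. FPLC supermere had 25.1, 38.5, 38.9 and 32.1, against 5.70, 3.11, 27.1 and 16.0 in FPLC exomere, so that the 4 supermere libraries, whose U4 and U5 levels differed by more than 10 times, lay close together in this ratio. Every supermere library was above 20, every 2D sEV library below 3, and gradient 9_10 A stood apart from the other 3 libraries of its pool. Within U4, RNU4-2 took on average 46.2% ± 2.64 (2D UC sEV, n = 3) to 67.0% (3D UC sEV, 52.3 to 76.9%, n = 3) of the counts over the 11 groups.

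**Figure D4:**
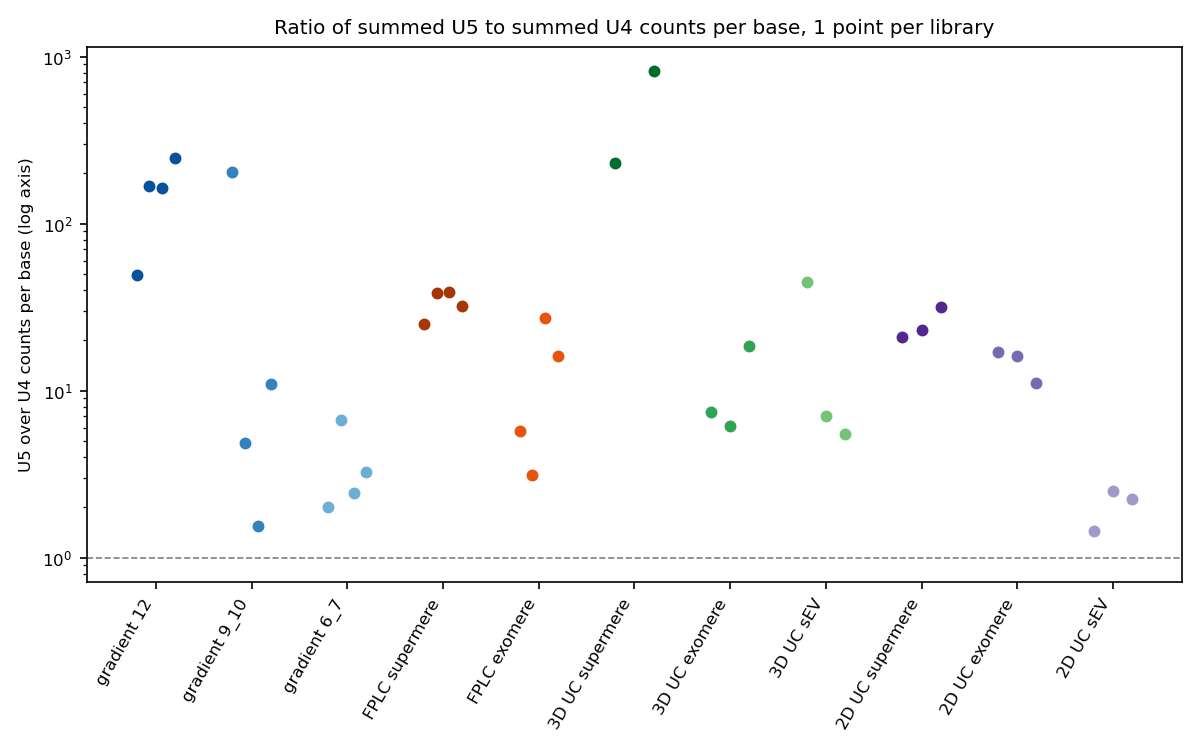
Ratio of summed U5 to summed U4 counts per base (log axis) for each library of the 11 groups. Gradient 12 (49.2 to 245) and 3D UC supermere (231 and 816) are highest, and 2D UC sEV (1.45 to 2.51) is lowest.

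Calls of the other spliceosomal snRNAs went in different directions by comparison. Of 17 other listed snRNA entries tested, 3 were called higher and 4 lower in 2D UC supermere against sEV (median log2 fold change 2.19). Beside them 7.82% of all features were called (median 0). Several of the 17 entries had nearly equal levels. RNU6-1 and RNU6-7 both averaged 7.94 CPM in gradient 12, and RNVU1-18 and RNU1-27P both averaged 1892 CPM in 2D UC supermere. Calls of such entries are not independent of each other. In 3D UC supermere against sEV 0 of the 17 were called higher and 5 lower (median -2.99), beside 5.17% of all features (median -3.22). Gradient 9_10 against 6_7 had 0 higher and 11 lower (median -3.53), beside 8.32% (median 2.71). The 7 U4 and U5 RNAs had a median of 0.08 there. In gradient 12 against 9_10, 13 were called higher and 0 lower (median 4.55), beside 4.41% of all features (median -1.75). The calls were 4 higher and 0 lower in 3D against 2D UC sEV (median 2.51), beside 1.96% (median -0.85). FPLC supermere against exomere had 1 higher and 5 lower (median -1.91), beside 6.1% (median -1.61). With library totals the calls were 1 higher and 1 lower in gradient 12 against 9_10 (median 1.32), beside 44.1% of all features (median -5.19). They were 2 higher and 0 lower in gradient 9_10 against 6_7 (median -0.56), beside 42.4% (median 5.32). FPLC supermere against exomere had 0 higher and 13 lower (median -4.30), beside 48.2% (median -3.77). RNU6-1, one of the U6 genes and so a pairing partner of U4, was lower, as were the U4 RNAs, in 2D UC supermere against sEV (-4.43, SE 1.14, adjusted p = 0.00221). In 2D UC exomere, however, it averaged 44.1 ± 14.7 CPM, against 44.1 ± 11.6 CPM in sEV (-1.58, SE 1.01, adjusted p = 0.666). In gradient 12 it averaged 7.94 ± 5.18 CPM, against 3.80 ± 1.46 CPM in gradient 9_10, with overlapping libraries (2.77 to 14.3 against 2.47 to 5.38 CPM). TMM called it higher there (4.55, SE 1.24, adjusted p = 0.00841) and library totals did not (1.32, SE 1.31, adjusted p = 0.443), while both U4 RNAs were called lower under both. RNU2-1, the U2 snRNA that recognises the branch point, rose in 2D UC supermere, to 100026 ± 60051 CPM against 3048 ± 1033 CPM in sEV (5.21, SE 0.866, adjusted p = 1.24e-07). RNU1-1, the U1 snRNA that recognises the splice donor, had 2.20 there (SE 0.841, adjusted p = 0.0979).

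Over the 11 group means of log2(CPM + 1), RNU4-1 and RNU4-2 had a Pearson correlation of 0.978, RNU5A-1 and RNU5F-1 one of 0.83, and RNU5B-1 and RNU5D-1 one of 0.821. Group means share library totals and, for genes with common sequence, divided reads, so these are descriptions. Among 800 features with a group mean of at least 50 CPM, the most like were the miRNA hsa-miR-30e-3p for RNU4-1 (0.915), tRNA-Asn-GTT-10-1 for RNU4-2 (0.927), a Y RNA copy for RNU5A-1 (0.717), the snoRNA SNORD16 for RNU5B-1 (0.887), the snoRNA SNORA71B for RNU5D-1 (0.932), the mitochondrial tRNA chrM.tRNA12-TS1 for RNU5E-1 (0.725) and tRNA-Thr-TGT-1-1 for RNU5F-1 (0.812).

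Reads also fell on copies of these genes, 83 entries of U4 and 25 of U5. The U4 copies summed to 389.9, 4652, 8344 and 680.0 CPM in gradient 9_10 A to D, where B and C were also the libraries with the highest RNU4-1 and RNU4-2. In 2D UC the U4 copies summed to 42.7 to 169.9 CPM in supermere and 48.6 to 178 CPM in exomere, against 40.0 to 54.8 CPM in sEV, an overlap that the U4 genes themselves did not show. Among the U5 copies, RNU5A-8P, picked out after its values were seen, had 492, 475 and 30.7 CPM in 2D UC supermere and 231, 156 and 28.3 CPM in exomere, against 10.9, 16.2 and 8.69 CPM in sEV. Its supermere and exomere libraries were all above the sEV libraries, with library C lowest in each. How far the division of reads between genes and copies moves the levels of U4 and U5 was not tested.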

How the data were processed

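Small RNA sequencing was deposited as a table of estimated counts per feature, which the authors did not normalise and in which reads that fit several entries were divided. Per the submitters' processing notes, cutadapt 4.5, FastQC 0.12.1, Bowtie 1.3.1 and the genome GRCh38.p13 were used; the counter and its annotation are not given in the sources used here. The notes do not tie libraries to sequencing runs, so batches could not be compared. Libraries were grouped by their titles, and the library letters are not tied to medium pools, so p-values measure the spread between these libraries, which may be technical.

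Counts were rounded and fitted in edgeR 4.0.16 (R 4.3.3) by its robust quasi-likelihood test with TMM scaling, 11 group means over 37 libraries and 26 residual degrees of freedom, keeping 8979 features at a count minimum of 10, with Benjamini-Hochberg adjustment at 0.05. The SE is the log2 fold change over the root of F. Alternatives were DESeq2 1.42.0, its size factors (RLE) in edgeR, library totals, snRNA totals (327 snRNA features), no filter, the near-empty library kept, 2 groups only, a replicate block and omission of each library. U5 shares were tested by exact permutation of the sum of squares between groups (Python 3.11.15, numpy 2.4.6). The Wilson and counting intervals came from scipy 1.17.1. On simulated counts for 2D UC supermere against sEV (7240 features), 64 of 100 features changed 16-fold and 96 of 100 changed 64-fold were recovered, with 6 false calls. Recovery at the low counts of some U4 and U5 RNAs, or under TMM factors as far apart as those found, was not tested separately. CPM divide by the library total. Intervals and floors cover counting error only, since PCR reads carry no molecular identifiers. The U4 sequences are those of GENCODE release 29; the U5 sequences are not reported here.

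The U4 and U5 genes, the other lists and the tests were chosen with earlier results of these data known. All 7 genes are named, with values for those that pass or reach a group mean of 50 CPM; the other snRNAs are counted, with RNU6-1, RNU2-1 and RNU1-1 named. The like features came from those with a group mean of at least 50 CPM. Equal letters deviated together only in 2D UC supermere against exomere (correlations of 0.109 to 0.413 over 3 pairs), where the block left 0 calls, as without it; in the other comparisons they ran from -0.0973 to 0.163.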

Additional observations from a re-analysis of the deposited data

Results flagged for a closer look

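A library was listed here when, in a group of 4, its gap to the nearest other was large against the group's range (Dixon's test at 95%). This happened in 21 of 140 groups tested, which are many measures of the same few groups, so the values are not independent of each other. Chance gives about 1 in 20 for normally spread values, and CPM and ratios, which are skewed here, can give more.

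FPLC supermere D stood above the other 3 libraries of its group in 10 measures. Its level was 28.1 CPM for RNU4-1 (others 0.247 to 4.51), 29.5 CPM for RNU4-2 (0.864 to 5.04) and 57.6 CPM for their sum (1.11 to 8.63). It was 722 CPM for RNU5A-1 (11.5 to 70.9), 337 CPM for RNU5B-1 (1.505 to 13.01) and 69.9 CPM for RNU5F-1 (1.57 to 10.1). The copies of U4 reached 410 CPM (3.43 to 45.3), the copies of U5 249 CPM (0.440 to 5.09) and RNU5A-8P alone 125 CPM (0.116 to 2.13). RNU5B-1 took 21.9% of its U5 counts (3.88 to 6.47%). This library also had the highest snRNA share of its group, 39.3%. As a share of snRNA counts FPLC supermere A stood apart instead, with 0.711% for RNU5A-1 (0.177 to 0.237%) and 0.0966% for RNU5F-1 (0.0178 to 0.0312%).

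In FPLC exomere, library B had 114 CPM of RNU4-1 (39.7 to 48.5), or 0.235% of snRNA counts (0.0462 to 0.0699%). RNU4-2 took 79.6% of the U4 counts in library A (49.0 to 53.7%), and U5 took 3.14% of the snRNA counts in library C (1.11 to 1.33%).

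In the gradient, 9_10 A had 371 CPM of U5 copies (10.8 to 49.8), 77.1 CPM of RNU5A-8P (0 to 8.90) and a ratio of U5 to U4 counts of 172 (1.31 to 9.34). RNU5F-1 took 1.95% of the snRNA counts in 9_10 B (0.183 to 0.247%), and U4 took 0.294% in 6_7 B (1.44 to 1.66%).

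The difference of RNU5E-1 between exomere and sEV was itself different in 3D and 2D UC, by -5.02 on the log2 scale. What sets these values apart was not tested.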

How the results depend on the processing

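Counts of the 7 RNAs called, beside the TMM counts in brackets, changed by more than 1.5 times as follows. With RLE scaling they were 1 (2) in 2D UC supermere and 1 (3) in 3D UC supermere against sEV, 1 (3) in 3D UC exomere against sEV, 2 (4) in 3D against 2D UC sEV, 1 (0) in FPLC against UC exomere and supermere, and 6 (1) in gradient 9_10 against 6_7. Beside these, RLE scaling called 575, 301, 245, 100, 451, 46 and 3381 of 8979 features, in the same order. With library totals they were 0 (2) and 0 (1) in 2D UC supermere and exomere against sEV, 1 (3) in 3D UC exomere against sEV, 2 (4) and 1 (3) in 3D against 2D UC sEV and exomere, 4 (0) in FPLC supermere against exomere, 1 (0) in FPLC against UC exomere and supermere, 6 (1) in gradient 9_10 against 6_7 and 5 (3) in 12 against 9_10. With snRNA totals they were 6 (2) and 6 (1) in 2D UC supermere and exomere against sEV, 5 (3) in 3D UC exomere against sEV, 0 (4) and 1 (3) in 3D against 2D UC sEV and exomere, 4 (0) in FPLC supermere against exomere, 2 (0) and 1 (0) in FPLC against UC exomere and supermere, 5 (2) in gradient 12 against 6_7 and 5 (3) in 12 against 9_10. Of 327 snRNA features, 166, 133, 98, 23, 67, 186, 163, 6, 115 and 36 were called there, in the same order. Without a filter they were 1 (2) and 0 (1) in 2D UC supermere and exomere against sEV, 1 (3) in 3D UC exomere against sEV, 2 (4) and 0 (3) in 3D against 2D UC sEV and exomere, and 1 (3) in gradient 12 against 9_10. With the near-empty library kept they were 2 (1) in 2D UC exomere against sEV and 1 (0) in FPLC against UC exomere. With 2 groups only they were 2 (1) in 2D UC exomere against sEV, 0 (1) in 3D UC supermere against exomere, 0 (3) in 3D against 2D UC supermere, 1 (0) in FPLC supermere against exomere and against UC supermere, and 6 (1) in gradient 9_10 against 6_7. DESeq2 gave 1 (0) in FPLC supermere against exomere and in both FPLC against UC pairs, 6 (1) in gradient 9_10 against 6_7 and 4 (2) in 12 against 6_7. The shares of all features called with library totals stand with each comparison above. For the remaining settings that share is not given here, so their counts say nothing particular to the 7 RNAs. The cause of these differences was not tested.

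Omitting 1 library gave 0 to 2 calls in 2D UC supermere against sEV, 0 to 1 in exomere against sEV and 0 to 0 in supermere against exomere. In 3D UC it gave 0 to 3, 1 to 2 and 1 to 1, and in 3D against 2D 2 to 3 for sEV, 1 to 3 for exomere and 1 to 3 for supermere. It gave 0 to 0 in FPLC supermere against exomere, 0 to 1 and 0 to 0 in FPLC against UC exomere and supermere, and 1 to 1, 1 to 2 and 1 to 4 in gradient 9_10 against 6_7, 12 against 6_7 and 12 against 9_10. Called U5 shares numbered 0 to 2 in 2D UC, 0 to 5 in 3D UC, 3 to 5 in the gradient, 0 to 0 in FPLC and 0 to 2 between cultures.

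Among values called by TMM or by the alternative, directions turned round in these cases. With snRNA totals RNU5B-1 had -0.29 in 3D against 2D UC sEV, -1.98 in FPLC supermere against exomere, -0.89 in gradient 12 against 6_7 and -0.35 in 12 against 9_10, RNU5A-1 had -2.84 and RNU5D-1 -2.77 in 12 against 6_7, and RNU5A-1 had -3.12 and RNU5E-1 -2.61 in 12 against 9_10. With library totals RNU5E-1 had -1.91 in 3D against 2D UC exomere, -1.89 in FPLC supermere against exomere and -2.37 in gradient 12 against 9_10, where RNU5A-1 had -2.95. In gradient 9_10 against 6_7 RNU5A-1 had 2.68 (RLE and DESeq2), 3.17 (library totals) and 3.04 (2 groups only), and RNU5B-1 1.91, 2.35 and 2.37.

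A replicate block in the count fit left 3 (4) calls in 3D against 2D UC sEV and 2 (3) in gradient 12 against 9_10. Blocked U5 shares had 0 calls in 2D UC (4), 3D UC (1), the gradient (4) and between cultures (2), with smallest possible p of 0.0278 in UC and 0.00463 in the gradient, and arcsine shares left 1 (2) between cultures. In 2D UC and 3D UC that smallest p left little room for a call after adjustment, so the blocked tests there decide nothing. Over all features, library totals gave 4442 calls (483 by TMM) in 3D against 2D UC exomere, 747 (182) in supermere, 4330 (548) in FPLC supermere against exomere, 3807 (747) in gradient 9_10 against 6_7 and 3961 (396) in 12 against 9_10. Of 1506 gene values under an alternative, 1194 kept side and direction and 20 called by either fit turned round; 108 more changed sign but were called by neither. Few U4 counts (8.2 to 22.2 in gradient 12, 11 in 3D UC supermere C) limit U4 there.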
